A study of Mus musculus with 11 samples.

Results

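The AP-1 family is the group of 10 genes Fos, Fosb, Fosl1, Fosl2, Jun, Junb, Jund, Batf, Batf3 and Atf3, taken by symbol from the 21957 genes of the count table. All 10 symbols matched 1 entry each. They were followed in OT1 cells, mouse CD8 T cells whose transgenic receptor recognises an ovalbumin peptide. The cells are labelled as primed and, in the series design, as CD8 memory T cells. One group, labelled T0 and unstimulated, was left resting, and the other, labelled 2hr and stimulated, was activated for 2 h with beads against CD3 and CD28. The protocol has the resting cells kept for the same 2 h, whereas the time label is T0, so it is unsettled whether the groups also differ by 2 h of culture. Both groups received cycloheximide, which stops translating ribosomes, for 10 minutes at the end, so no library comes from cells without it. Messenger RNA was counted in 3 unstimulated and 3 stimulated libraries. Ribosome footprints, the mRNA pieces covered by translating ribosomes, were counted in 3 unstimulated libraries and in stimulated replicates 2 and 3. Stimulated footprint replicate 1 was not analysed here. Separate mice or cultures are not stated for the replicates, and the p-values measure only the spread between these samples, which may be technical.

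AP-1 is a dimer of proteins that share a basic region, which holds the DNA, and a leucine zipper, which holds the partner. Fos proteins pair with Jun proteins, Jun proteins can also pair with each other, and the small Batf proteins, which lack a transactivation domain of their own, take a Jun partner and bind beside interferon regulatory factors. In T cells the kinases downstream of the antigen receptor and CD28 raise the transcription and the activity of Fos and Jun, and the dimers bind together with NFAT at cytokine genes. Fos, Jun, Junb, Fosb and Atf3 are classic immediate early genes, whose transcription starts without new protein synthesis.

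Depth differed widely between the assays. RNA libraries held 21658263 to 39346699 counts, and footprint libraries 11136 to 23641, 85433 footprints in all. Levels are CPM, counts relative to the library's total after TMM scaling, which sets libraries to a common level on most genes. The limit at a count of 0, taken as 3 counts, is 269, 206 and 197 CPM of the total in unstimulated footprint replicates 1, 2 and 3 and 144 and 127 CPM in stimulated replicates 2 and 3. Markers of T and CD8 cells were abundant, with 9 of 9 detected and summed levels of 3120 to 3492 CPM in unstimulated and 2341 to 3722 CPM in stimulated RNA. B cell (4.63 to 11.2 CPM), macrophage and monocyte (8.57 to 16.0 CPM) and NK cell markers (0.780 to 2.82 CPM) stayed low in all 6 RNA libraries, each as the sum of its list, and none of these markers was at 0 counts over the RNA libraries. Epithelial and stromal markers summed to 103 to 106 CPM in unstimulated and 58.9 to 76.8 CPM in stimulated RNA, and CD4 and regulatory T cell markers to 11.8 to 12.2 and 18.9 to 24.8 CPM, with 1 of 5 lower and 1 of 3 higher by the test. Erythroid and platelet markers summed to 4.56 to 4.99 and 1.84 to 3.57 CPM, with 1 of 5 lower. These shifts go with the groups, and their part in the results was not tested. The stimulated RNA libraries stood further apart than the unstimulated ones. Over genes of at least 10 CPM the median SD of log2 CPM was 0.28 among stimulated and 0.07 among unstimulated libraries, and stimulated replicate 3 had the highest CPM of all 10 members in its group.

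The stretches of DNA just before the transcription starts are shown first for 5 members: Jun, Fos, Atf3 and Junb, whose mRNA rose and exceeded 10 CPM, and Batf, whose level lay lower after stimulation. Each is the 250 bases before the start of the gene in RefSeq on GRCm38.p6, read 5′ to 3′ on the gene's strand. They lie at chr4:95052223-95052472 (minus strand), chr12:85473640-85473889 (plus), chr1:191183334-191183583 (minus), chr8:84978749-84978998 (minus) and chr12:85686470-85686719 (plus). Capitals mark matches to TGANTCA, the classic AP-1 site, to TGANNTCA, the 8-base form that includes the cAMP response element, to the shorter TGACG, or to the CArG box bound by serum response factor, on either strand. A TGACG can lie inside a TGANNTCA.
Jun: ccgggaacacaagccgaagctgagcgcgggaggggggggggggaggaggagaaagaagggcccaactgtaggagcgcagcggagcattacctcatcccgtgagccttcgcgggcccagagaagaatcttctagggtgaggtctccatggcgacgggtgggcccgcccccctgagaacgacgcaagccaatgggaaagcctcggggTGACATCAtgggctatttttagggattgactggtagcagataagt
Fos: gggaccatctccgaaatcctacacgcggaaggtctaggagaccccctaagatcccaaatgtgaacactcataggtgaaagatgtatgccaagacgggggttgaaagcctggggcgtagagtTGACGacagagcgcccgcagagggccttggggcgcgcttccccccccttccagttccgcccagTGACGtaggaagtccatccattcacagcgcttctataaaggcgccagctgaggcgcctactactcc
Atf3: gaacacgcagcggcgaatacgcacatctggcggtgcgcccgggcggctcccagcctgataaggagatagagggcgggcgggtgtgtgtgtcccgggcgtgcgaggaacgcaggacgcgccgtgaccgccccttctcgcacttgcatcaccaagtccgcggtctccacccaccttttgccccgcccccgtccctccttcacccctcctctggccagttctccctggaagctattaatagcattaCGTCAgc
Junb: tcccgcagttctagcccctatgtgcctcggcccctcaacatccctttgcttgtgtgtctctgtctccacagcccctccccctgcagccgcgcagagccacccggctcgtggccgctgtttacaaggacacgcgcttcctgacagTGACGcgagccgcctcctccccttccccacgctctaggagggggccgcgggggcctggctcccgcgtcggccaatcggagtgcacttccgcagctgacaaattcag
Batf: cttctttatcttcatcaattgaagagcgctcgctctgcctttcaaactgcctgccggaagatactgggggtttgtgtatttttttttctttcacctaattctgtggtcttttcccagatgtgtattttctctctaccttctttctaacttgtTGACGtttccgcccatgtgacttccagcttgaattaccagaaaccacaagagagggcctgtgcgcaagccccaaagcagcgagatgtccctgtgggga
Among the 9 members with a window (none was matched for Fosl1), TGACG was found in 5, TGANNTCA in 2, and TGANTCA and the CArG box in 0. Bases outside these 250 were not searched, so a gene without a match here may have the site elsewhere. Over 32536 distinct windows of the same length, 17.9% held TGACG, 11.9% TGANNTCA, 6.73% TGANTCA and 1.48% the CArG box. The Jun window holds TGACATCA from base -45 to -38, counted back from the start, and the Fos window holds TGACG at -129 to -125 and -66 to -62. TGACG stood at -106 to -102 in Junb, at -98 to -94 in Batf and, on the opposite strand, at -7 to -3 in Atf3. A TGACG match was thus present in Fos, Atf3 and Junb, which rose, and in Fosb and Batf, which did not pass. It was absent from Jun and Batf3, which rose, and from Fosl2 and Jund, which did not pass. The Fosb window (chr7:19310046-19310295, minus strand) reaches into the gene's span used here, which ends at 19310118. Its TGACG at -60 to -56 lies inside that span and not before it. These matches are letters in a window and not measured binding.

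Stimulation raised the mRNA of 6 of the 10 members, Jun, Fosl1, Batf3, Fos, Atf3 and Junb, between 2.18-fold and 4.72-fold, and lowered none. Fosb, Jund, Fosl2 and Batf did not pass. Of all 18886 genes tested in RNA with edgeR's quasi-likelihood test, 3.58% were called higher, 4.68% lower and 8.26% in either direction at an adjusted p under 0.05. All 10 members passed the filter on low counts. Of the 8 members of at least 10 CPM, 4 were called. Of 8494 such genes in all, 1394 were called in this test and also when only such genes were tested, as were those 4 members. In the latter test 6 of the 8 members were called, Fosb (adjusted p = 0.00962) and Jund (0.0331) included, beside 2384 of 8494. The CPM of the groups did not overlap for 8 members, 7 higher and 1 lower after stimulation, where 29.0% of all tested genes did not overlap, 15.4% higher and 13.6% lower. The members' median log2 change was 1.38, beside 0.39 over all tested genes and -0.09 over tested genes of at least 10 CPM.

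**Figure D1:**
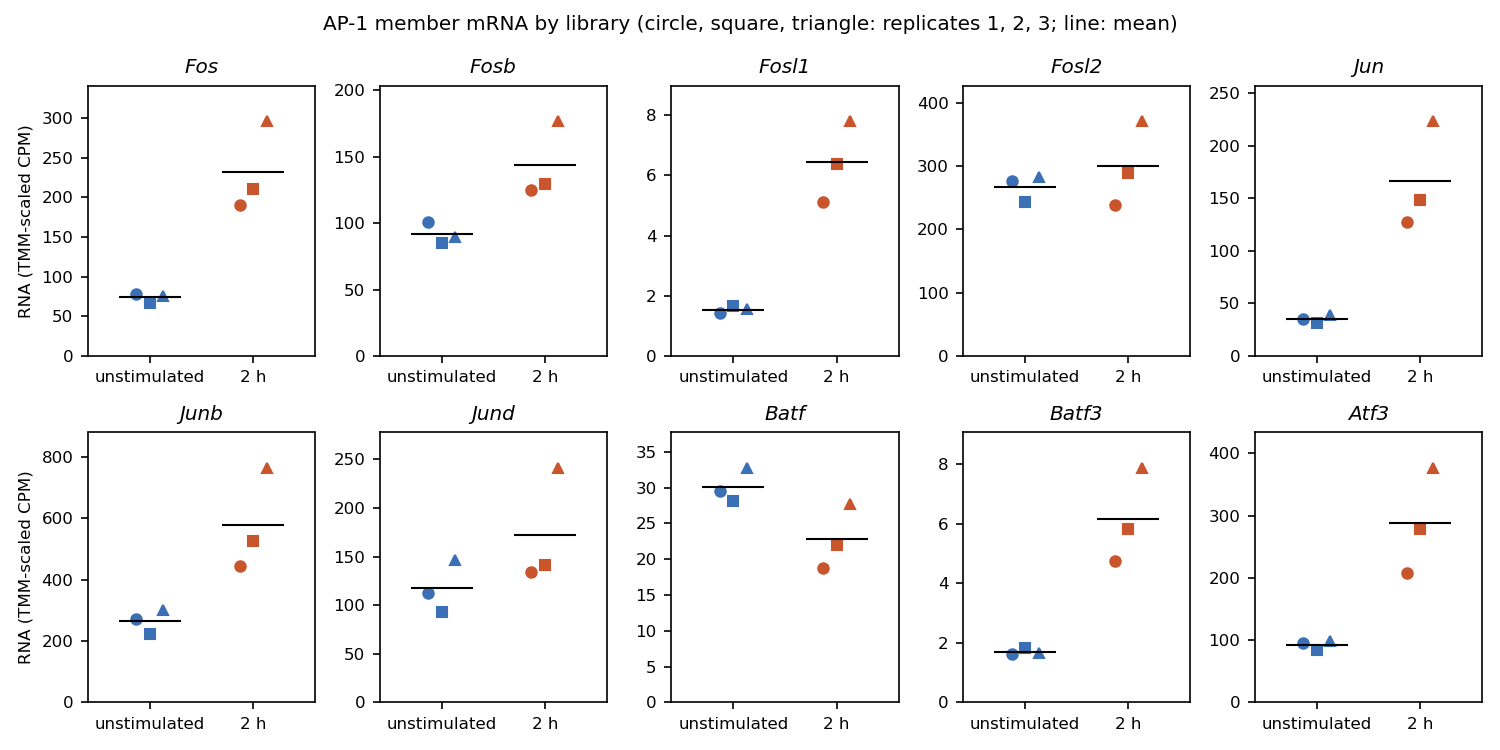
RNA level of each AP-1 member in TMM-scaled CPM (vertical axes from 0, separate for each gene) in 3 unstimulated (blue) and 3 stimulated (orange) libraries, with replicate 1 as a circle, 2 as a square and 3 as a triangle and the group mean as a line. The groups do not overlap for 8 of the 10 members, and the triangle is the highest stimulated library in every panel.

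The Jun proteins are the partners that Fos and Batf proteins need to bind DNA, and their 3 genes separated after stimulation. Jun (chromosome 4, 95049036 to 95052222), the founding member and the target of the JNK kinases, was at 35.5, 31.2 and 38.9 CPM in unstimulated RNA replicates 1, 2 and 3 and at 127, 149 and 223 CPM in the stimulated ones. The lowest stimulated library lay above the highest unstimulated one. The rise was 4.72-fold (log2 change 2.24 ± 0.23 SE, adjusted p = 0.000205). Junb (chromosome 8, 84976909 to 84978748), a weaker activator that also partners Batf, went from 271, 224 and 301 CPM to 445, 527 and 764 CPM. Again no library overlapped, and the rise was 2.18-fold (1.12 ± 0.24, adjusted p = 0.0140). Leaving out unstimulated replicate 3 (adjusted p = 0.0590) or stimulated replicate 2 (0.112) ended the Junb call, as did RLE scaling (0.88, adjusted p = 0.0710). Jund (chromosome 8, 70697739 to 70700616), the Jun gene known for steady expression in resting cells, was at 113, 93.4 and 147 CPM and then at 135, 142 and 242 CPM. Its unstimulated replicate 3 lay above 2 stimulated libraries, and the difference did not pass (0.55 ± 0.26, adjusted p = 0.253).

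Because the counts of 2 genes in 1 library share its scaling, their ratio does not depend on it. Jun counts were 0.315, 0.334 and 0.264 of the Jund counts in unstimulated replicates 1, 2 and 3, and 0.944, 1.05 and 0.924 in the stimulated ones. Junb counts were 2.41, 2.40 and 2.05 times those of Jund before and 3.31, 3.72 and 3.16 times after. Both ratios were higher in every stimulated library than in any unstimulated one. They show unequal change within the Jun genes. They are not ratios of molecules, since coding lengths were not used.

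Of the Fos genes, Fos and Fosl1 rose. Fos (chromosome 12, 85473890 to 85477274), which binds DNA only with a Jun partner, was at 78.4, 67.1 and 75.8 CPM and reached 190, 210 and 296 CPM. The groups stood well apart, at a 3.14-fold rise (1.65 ± 0.21, adjusted p = 0.000932). Fosl1, which encodes Fra-1, was scarce, at 1.42, 1.65 and 1.55 CPM (60, 50 and 65 counts) and then 5.12, 6.38 and 7.80 CPM (116, 168 and 182 counts). It rose 4.17-fold (2.06 ± 0.34, adjusted p = 0.00417). Its span on chromosome 19 (5447698 to 5455938) overlaps Ccdc85b in RefSeq, and reads of the shared stretch cannot be told apart here, as the handling of strand is not given.

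Fosb and Fosl2 did not pass. Fosb (chromosome 7, 19302696 to 19310118), the close relative of Fos, was at 101, 84.7 and 89.5 CPM before and 125, 130 and 177 CPM after stimulation. The groups did not overlap, but the difference of 0.65 ± 0.19 missed the threshold (adjusted p = 0.0636). Without unstimulated replicate 2 or stimulated replicate 3 it passed (0.32, adjusted p = 0.0113, and 0.46, adjusted p = 0.00873), while its difference from the median of genes of at least 10 CPM was 0.69 to 0.79 over all 18 fits. Fosl2 (chromosome 5, 32136472 to 32157840), which encodes Fra-2, was at 276, 243 and 283 CPM and at 238, 289 and 371 CPM. The libraries of the groups were interleaved, and the difference was 0.16 ± 0.21 (adjusted p = 0.567). With scaling on genes of at least 10 CPM it passed as higher (0.26, adjusted p = 0.00284), also with only those genes tested under that scaling (0.000509). Genes called higher then numbered 3152 and 3138. Its sign turned in 5 other alternatives (as low as -0.17), in which the median of genes of at least 10 CPM fell as well. Relative to that median Fosl2 was at 0.21 to 0.28 in all 18 fits. The fits share libraries, and a new scaling shifts a gene and the median nearly alike. Such ranges are thus not 18 separate checks. The ratio of Fos to Fosl2 counts, which needs no scaling, was 0.284, 0.276 and 0.268 before and 0.797, 0.725 and 0.797 after. The ratio of Fos to Fosb counts was 0.775, 0.792 and 0.847 before and 1.52, 1.62 and 1.67 after. Fos thus took a larger part beside either relative in all 3 stimulated libraries.

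The Batf genes differed from each other. Batf (chromosome 12, 85686720 to 85709087), which CD8 T cells use for effector differentiation, was at 29.5, 28.2 and 32.8 CPM unstimulated and 18.8, 22.0 and 27.7 CPM stimulated. It was the only member whose groups separated with the stimulated libraries lower, but the difference did not pass (-0.40 ± 0.16, adjusted p = 0.189). It passed as lower without unstimulated replicate 2 (-0.71, adjusted p = 4.66e-06) or stimulated replicate 3 (-0.57, adjusted p = 0.00333), and with DESeq2 (-0.72, adjusted p = 0.0340). In these fits the median of genes of at least 10 CPM was lower too, at -0.39, -0.28 and -0.41 beside -0.09. Genes called lower then numbered 6173, 4271 and 2559. Library totals without TMM also gave a lower call for Batf (-0.58, adjusted p = 0.00167), with that median at -0.27. With scaling on genes of at least 10 CPM Batf passed too (-0.30, adjusted p = 0.00247), also with only those genes tested under that scaling (0.00118). That median was then 0.00, and 2928 and 3090 genes were called lower. With the main scaling and only those genes tested, Batf did not pass (-0.40, adjusted p = 0.101). Relative to the median of genes of at least 10 CPM, Batf was at -0.36 to -0.25 over all 18 fits, which are not separate checks. Batf3 (chromosome 1, 191098414 to 191108943), best known from cross-presenting dendritic cells, was near the lower end of detection, at 1.63, 1.82 and 1.67 CPM (69, 55 and 70 counts) before. It reached 4.77, 5.81 and 7.88 CPM after stimulation, 3.60-fold higher (1.85 ± 0.35, adjusted p = 0.00749). Dendritic cell markers summed to 10.0 to 16.6 CPM in unstimulated and 12.9 to 18.4 CPM in stimulated RNA, with 0 footprints on all 5 of them, and their part in the Batf3 change was not tested.

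Atf3 (chromosome 1, 191170296 to 191183333), a stress-inducible repressor that pairs with Jun proteins, was at 96.1, 83.4 and 99.0 CPM and rose to 208, 278 and 377 CPM. The groups did not overlap and the rise was 3.10-fold (1.63 ± 0.23, adjusted p = 0.00184). Over the 6 RNA libraries Atf3 and Fos had the closest profiles of any 2 members of at least 10 CPM (distance 0.217 between centred log2 values, against 3.10 for Jun and Batf, the farthest pair). Reads that fall on genes these cells should not use give a level to set beside the 2 scarce members. The 1473 olfactory and vomeronasal receptor genes averaged 0.189 to 1.23 CPM in unstimulated and 0.557 to 1.78 CPM in stimulated libraries. In unstimulated replicate 2 their 95th percentile was 2.88 CPM, above Fosl1 (1.65 CPM) and Batf3 (1.82 CPM) there, and in stimulated replicate 1 it was 4.17 CPM, below Fosl1 (5.12 CPM) and Batf3 (4.77 CPM). Both genes still passed without either of these libraries.

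**Figure D2:**
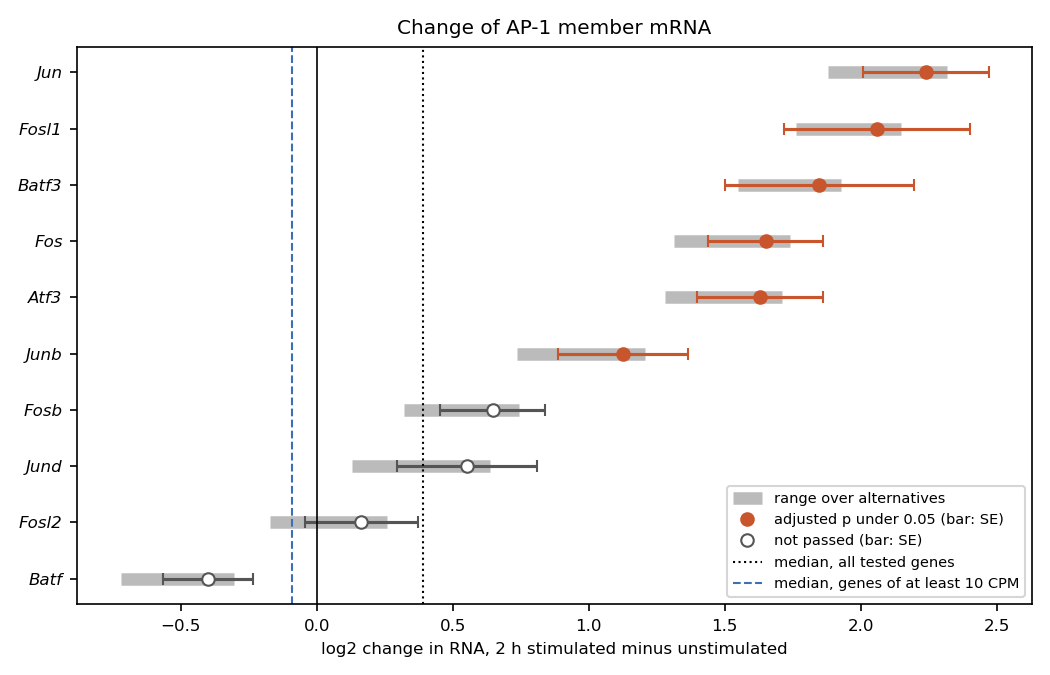
Log2 change in RNA, stimulated minus unstimulated, for each AP-1 member (points with SE bars, filled where the adjusted p is under 0.05). Grey bands span the alternatives run, and the lines mark 0 (solid) and the medians of all tested genes (dotted, 0.39) and of genes of at least 10 CPM (dashed, -0.09). The 6 filled points lie from 1.12 to 2.24, and the band of Fosl2 crosses 0.

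Within each library the makeup of the family's RNA counts shifted with stimulation. The 10 members together had 857.96 to 1070 CPM in unstimulated and 1496 to 2493 CPM in stimulated RNA. Jun went from 3.54 to 3.64% of the members' counts in the unstimulated libraries to 8.45 to 8.95% in the stimulated ones. Fos went from 7.08 to 7.82% to 11.9 to 12.7%, and Atf3 from 9.26 to 9.73% to 13.9 to 15.8%. Junb moved little by this measure, from 26.1 to 28.1% to 29.7 to 30.7%. Fosl2 lost most of the ground, from 26.4 to 28.3% to 14.9 to 16.4%, and Batf went from 2.94 to 3.28% to 1.11 to 1.26%. Fosb and Jund, whose CPM did not pass, were lower as shares, Fosb at 8.36 to 10.1% before and 7.09 to 8.35% after and Jund at 10.9 to 13.7% and 8.07 to 9.69%. The groups did not overlap for any member, with 6 shares higher and 4 lower. Measured in the same way against the members' summed counts, 53.3% of all tested genes did not overlap, 1.31% higher and 52.0% lower. Those percentages are no matched background for the members. The members' shares belong to a fixed whole, so some fall where others rise. For other genes the measure falls where the members' sum rises. The shares depend on coding length, which was not used, so each gene is set only beside itself.

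**Figure D3:**
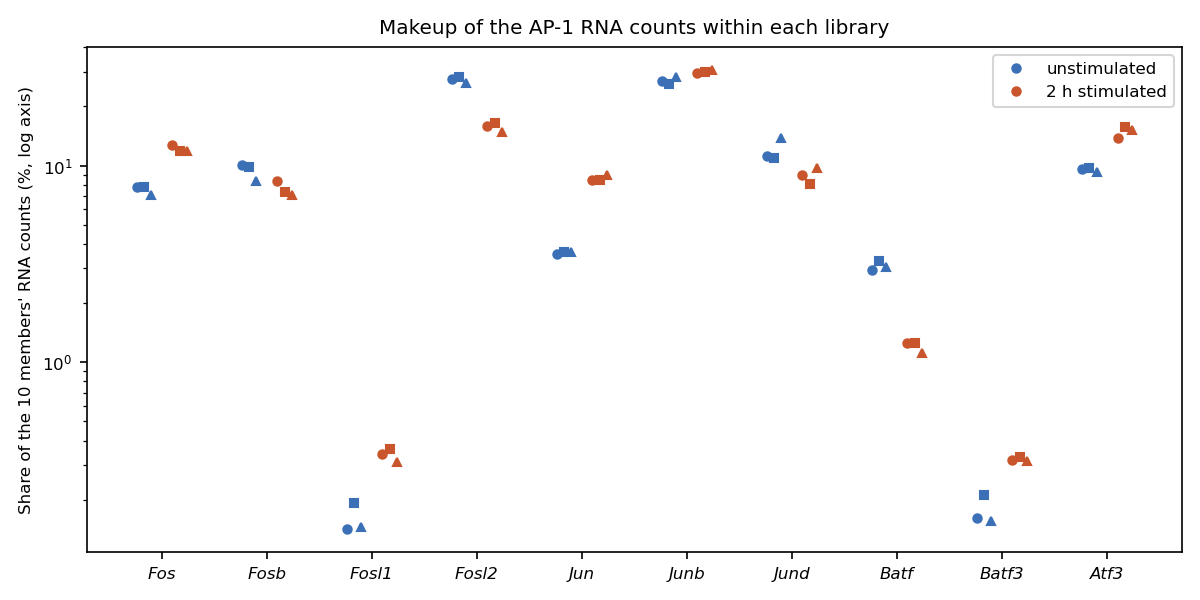
Share of each member in the summed RNA counts of the 10 AP-1 members (percent, log axis) in 3 unstimulated (blue) and 3 stimulated (orange) libraries, with replicates 1, 2 and 3 as circles, squares and triangles. The blue and orange points separate for each gene, with Jun going from at most 3.64% to at least 8.45% and Fosl2 from at least 26.4% to at most 16.4%.

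Footprints followed at far lower depth, and among the members Junb alone passed the filter on low counts. Junb had 7, 4 and 9 footprints in unstimulated replicates 1, 2 and 3 and 32 and 41 in stimulated replicates 2 and 3. Each stimulated library was above every unstimulated one also in CPM, where 38.7% of all tested footprint genes did not overlap, 20.7% higher and 18.0% lower. It went from 517 ± 235 CPM (SD, n = 3) to 1593 ± 161 CPM (SD, n = 2), a 3.18-fold rise (log2 change 1.67 ± 0.50 SE, edgeR adjusted p = 0.00954). Its unstimulated counts are all below the filter's minimum count of 10, so it was tested only through the stimulated libraries, where it is high, and with no filter its adjusted p was 0.197. Of 256 genes tested in footprints, 5.86% were called higher, 3.52% lower and 9.38% in either direction. Leaving out unstimulated replicate 2 (1.29, adjusted p = 0.128) or 3 (1.73, 0.0538) ended the Junb call, and so did leaving out stimulated replicate 2 (1.82, 0.0909) or 3 (1.57, 0.343). In the last 2 fits the stimulated group has 1 library, which is assumed to vary like the unstimulated ones. It also ended with a filter at a mean of 5 counts in either group (0.0651) and by DESeq2 (0.0506).

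The other members are given as counts, with the ratio of footprint rates and its exact 95% interval, which covers counting error only. Fos had 0, 0 and 1 footprints in the unstimulated libraries and 14 and 7 in the stimulated ones. The footprint rate was 18.8 times higher after stimulation, with a counting interval of 3.02 to 778. Jun had 2, 0 and 0 and then 8 and 9 footprints, a ratio of 7.61 (1.81 to 67.9). These ratios take the depth of the libraries into account, and both intervals lie above 1. When the filter was set at a mean of 5 counts in either group, Fos gave a log2 change of 3.92 (adjusted p = 0.111) and Jun 2.69 (adjusted p = 0.359), and neither passed. Fosl2 had 4, 1 and 2 and then 5 and 13 footprints, a ratio of 2.30 (0.918 to 6.52). Jund had 6, 0 and 6 and then 12 and 6, a ratio of 1.34 (0.612 to 3.06). For Fosl2 and Jund the intervals include 1. Atf3 had 4, 0 and 0 and then 0 and 9 footprints, so the stimulated replicates differed, with a ratio of 2.01 (0.562 to 8.95). Fosb had 3, 1 and 0 and then 3 and 0. Fosl1 had 1 footprint in all and Batf3 had 2. Batf had 0 in all 5 libraries, each with the limit of 3 counts given above.

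To read these counts against the mRNA, each group's footprint count was set beside the count the gene would have if its share of footprints equalled its share of RNA after TMM scaling. Over all genes of at least 10 CPM in RNA the ratio of observed to such a count was 0.973 in unstimulated and 0.869 in stimulated cells. For Batf the count at the RNA share was 1.23 in unstimulated and 1.04 in stimulated cells, so its 0 is not distinguishable from the RNA share at this depth. Junb had 20 footprints against 10.8 before, a ratio of 1.84 (1.13 to 2.85), and 73 against 26.4 after, a ratio of 2.76 (2.17 to 3.47). Fos had 1 against 3.02 before (0.332, interval 0.00840 to 1.85) and 21 against 10.6 after (1.99, interval 1.23 to 3.04). Jun was at 17 against 7.59 after stimulation (2.24, interval 1.31 to 3.59), while in unstimulated cells it had 2 against 1.44 (1.39, interval 0.168 to 5.02). Jund had 12 against 4.81 before (2.49, interval 1.29 to 4.36) and 18 against 7.88 after (2.28, interval 1.35 to 3.61). Atf3, whose mRNA rose as much as that of Fos, had 9 against 13.1 after stimulation (0.686, interval 0.313 to 1.30). For Fos, Jun, Junb and Jund the stimulated intervals lay above 0.869, and for Atf3, Fosl2 and Fosb they included it. The 0.869 is a ratio of counts summed over genes. The share of all genes with an interval above it was not computed, so the members are not set apart from other genes. These intervals leave out the spread between libraries.

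Whether footprints changed beyond the mRNA was tested as translational efficiency, the interaction of assay and stimulation over all 11 libraries. Junb, the tested member, had a difference of 0.57 ± 0.53 on the log2 scale (adjusted p = 0.798, and from 0.198 to 0.95 over 23 alternatives), which did not pass. Of 255 genes tested, 0 were called by edgeR (0%), with 28 at an unadjusted p under 0.05. DESeq2, which tested 1357 genes, called 29, and limma voom called 1 of 255, none of them members. With the filter at a mean of 5 footprints, Fos had a difference of 2.59 (adjusted p = 0.436) and Jun of 0.68 (adjusted p = 0.856). The depth limits this test. When the RNA libraries were thinned to 15237 counts each, without stimulated replicate 1, none of the 10 members passed the filter, and Fos had 0, 2 and 1 and then 10 and 1 counts.

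**Figure D4:**
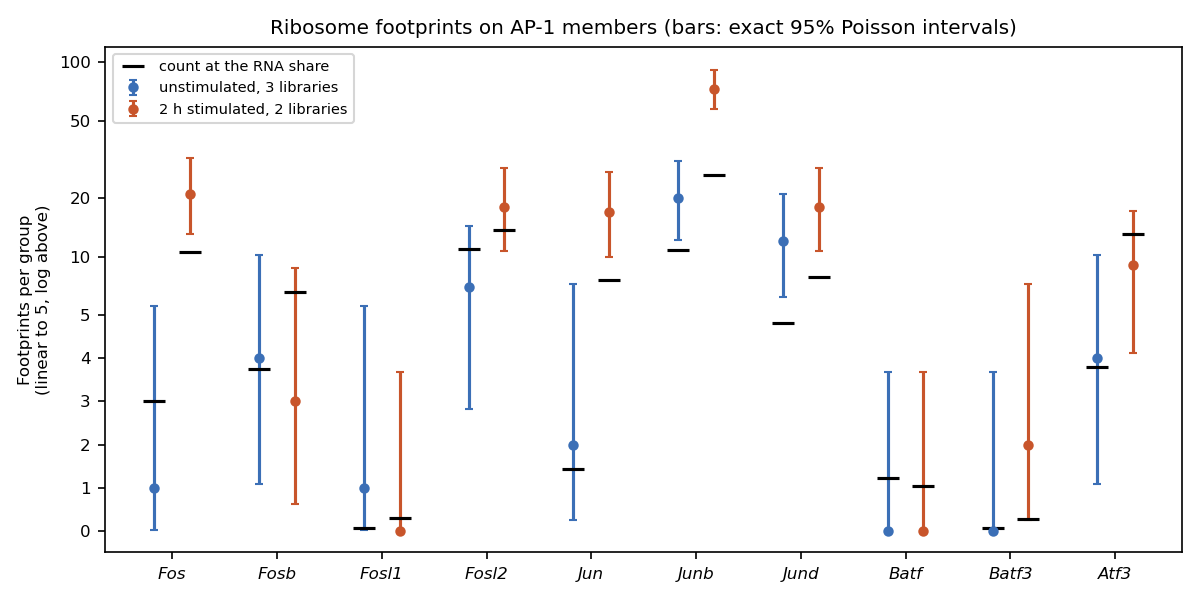
Footprints on each AP-1 member summed over 3 unstimulated (blue) and 2 stimulated (orange) libraries, on an axis that is linear to 5 and logarithmic above, with exact 95% Poisson intervals. Black dashes mark the count at the gene's share of RNA. The stimulated intervals of Fos, Jun, Junb and Jund lie above their dashes, as do the unstimulated ones of Junb and Jund. How many other genes do so was not computed. Both Batf counts are 0 with dashes at 1.23 and 1.04.

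Among 28 tested genes of other bZIP factors, which share the basic region and zipper and include further partners of AP-1, 5 rose, 2 fell and 21 did not pass. Thus 25.0% were called, beside 8.26% of all tested genes, of which 8494 were of at least 10 CPM. Of the 19 bZIP genes of at least 10 CPM, 5 were called, beside the 1394 of 8494 given above. Their median log2 change was 0.39, and 0.26 over the 19 of them at 10 CPM or more, beside 0.39 over all tested genes and -0.09 over those of at least 10 CPM. The risen genes were the 3 small Maf genes Maff, Mafg and Mafk, which lack a transactivation domain, with Nfil3 and Atf5. Maff went from 14.5, 12.2 and 15.8 CPM to 38.1, 46.0 and 60.4 CPM (3.40-fold, 1.76 ± 0.19, adjusted p = 0.000301), with no overlap. Mafg changed by 1.04 (adjusted p = 0.00608, 0.0906 without stimulated replicate 2). Mafk changed by 0.89 (adjusted p = 0.0205), Nfil3 by 0.80 (0.0119) and Atf5 by 0.93 (0.0240). The 2 genes that fell were Creb1, a cAMP-responsive activator (-0.77, adjusted p = 0.0281), and Jdp2, a repressor that pairs with Jun. For Mafk, Nfil3, Atf5 and Creb1, leaving out any of 4 RNA libraries, replicates 1 and 3 of the unstimulated and 1 and 2 of the stimulated group, ended the call. The adjusted p was then 0.0587 to 0.259 for Mafk, 0.0535 to 0.181 for Nfil3, 0.177 to 0.275 for Atf5 and 0.125 to 0.204 for Creb1. RLE scaling and DESeq2, which also lower the median of genes of at least 10 CPM, ended the calls of Mafk (0.128 and 0.103), Nfil3 (0.0911 and 0.152) and Atf5 (0.0708 and 0.101), and scaling without 4 abundant genes ended those of Mafk (0.0533) and Atf5 (0.0573). Jdp2 lies at 85598656 to 85639878 on chromosome 12, in the 209 kb between Fos and Batf, and is named for that position after its values were seen. It went from 9.79, 9.42 and 9.90 CPM to 4.06, 4.33 and 6.08 CPM (-1.01 ± 0.24, adjusted p = 0.0242). Leaving out unstimulated replicate 1 (0.0845) or 3 (0.133) or stimulated replicate 2 (0.0624) ended that call. Of the 3 neighbouring bZIP genes, 1 rose, 1 fell and 1 did not pass.

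Of 30 genes of the MAP kinase cascades, which phosphorylate Jun and activate Fos transcription, 2 rose, 4 fell and 24 did not pass. These 6 of 30 stand beside 8.26% called of all tested genes. All 6 are among the 28 of at least 10 CPM, to set beside the 1394 of 8494 given above. Their median log2 change was -0.0045. Map2k3, a p38 activator, changed by 1.21 (adjusted p = 0.00625, 0.0759 without stimulated replicate 2), and Map3k8, which feeds the ERK pathway, by 1.04 (adjusted p = 0.00927). The Map3k8 call ended on leaving out unstimulated replicate 3 (0.0957) or stimulated replicate 1 (0.0702) or 2 (0.161), or with RLE scaling (0.0663). Mapk14, which encodes p38 alpha, was lower (-0.92, adjusted p = 0.0130, 0.0643 and 0.0521 without stimulated replicates 1 and 2). Map3k1 (-0.82, adjusted p = 0.0250), Map3k3 (-0.76, 0.0379) and Mapk3, which encodes ERK1 (-0.66, 0.0132), were lower too. All 3 calls ended on leaving out any of the 4 libraries named above, with adjusted p of 0.0650 to 0.144, 0.103 to 0.177 and 0.0739 to 0.116. The JNK genes Mapk8 (0.23) and Mapk9 (-0.10) did not pass. Of 14 genes for serum response factor, its ETS and MRTF cofactors, MEF2 factors and their kinases and coactivators, 0 rose, 2 fell and 12 did not pass (14.3% called), with a median of -0.34. Of the 13 of these genes at 10 CPM or more, 2 were called, again beside 1394 of 8494. Mrtfa, a serum response factor coactivator, fell from 59.5 ± 1.10 to 27.4 ± 4.35 CPM (SD, n = 3, adjusted p = 0.00200). Rps6ka5, which encodes the kinase MSK1, was lower (-0.82, adjusted p = 0.00694, 0.0844 without stimulated replicate 2). Srf itself did not pass (0.39, adjusted p = 0.290).

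Of 9 genes whose products bind beside AP-1 on composite DNA sites, 2 rose and 7 did not pass. Thus 22.2% were called, beside 8.26% of all tested genes. All 9 are of at least 10 CPM, to set beside the 1394 of 8494 given above. Both risen genes were interferon regulatory factors that bind with Batf. Irf8 went from 73.0, 60.4 and 73.9 CPM to 583, 750.2 and 1009 CPM (11.3-fold, adjusted p = 1.61e-05), and Irf4 from 582, 531 and 584 CPM to 1490.3, 1868 and 2404 CPM (3.40-fold, adjusted p = 0.000970). Nfatc1 (-0.20), Nfatc2 (-0.39) and Nfatc3 (-0.64) did not pass. The median of the list was -0.03.

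Of 13 genes known as AP-1 targets in T cells, 11 rose, 0 fell and 2 did not pass. Their median was 1.64, beside 0.39 over all tested genes. Thus 84.6% were called, beside 8.26% of all tested genes. Of the 12 of at least 10 CPM, 10 were called, beside 1394 of 8494. The list was chosen with results of these libraries known, so its direction is no independent evidence. The most raised of at least 10 CPM were the cytokine genes Il2 (59.1-fold), Csf2 (58.7-fold), Ifng (38.1-fold) and Tnf (7.61-fold), with adjusted p from 1.62e-07 to 3.33e-05. Gzmb (-0.46, adjusted p = 0.237) and Cd44 (0.63, adjusted p = 0.0771) did not pass. Of 15 genes for the turnover of AP-1 mRNA and protein and for feedback on its kinases, 3 rose, 1 fell and 11 did not pass. Here 26.7% were called, beside 8.26% of all tested genes. All 15 are of at least 10 CPM, again beside 1394 of 8494. The risen genes encode MAP kinase phosphatases. Dusp4 went from 52.5, 39.8 and 54.1 CPM to 97.7, 119 and 169 CPM (1.40 ± 0.23, adjusted p = 0.00379). Dusp2 changed by 1.13 (adjusted p = 0.0156, but 0.0669 leaving out unstimulated replicate 3 and 0.112 leaving out stimulated replicate 2, and 0.0701 with RLE scaling). Dusp5 changed by 0.88 (adjusted p = 0.0291, but 0.123 to 0.279 leaving out any of the 4 libraries named above, 0.149 with RLE scaling, 0.0998 by DESeq2 and 0.0695 with scaling without 4 abundant genes). Zfp36l2, which encodes a protein that binds AU-rich elements and promotes mRNA decay, fell from 172 ± 17.2 to 72.6 ± 18.2 CPM (SD, n = 3, adjusted p = 0.00446). Its relative Zfp36 did not pass (0.63, adjusted p = 0.0828).

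**Figure D5:**
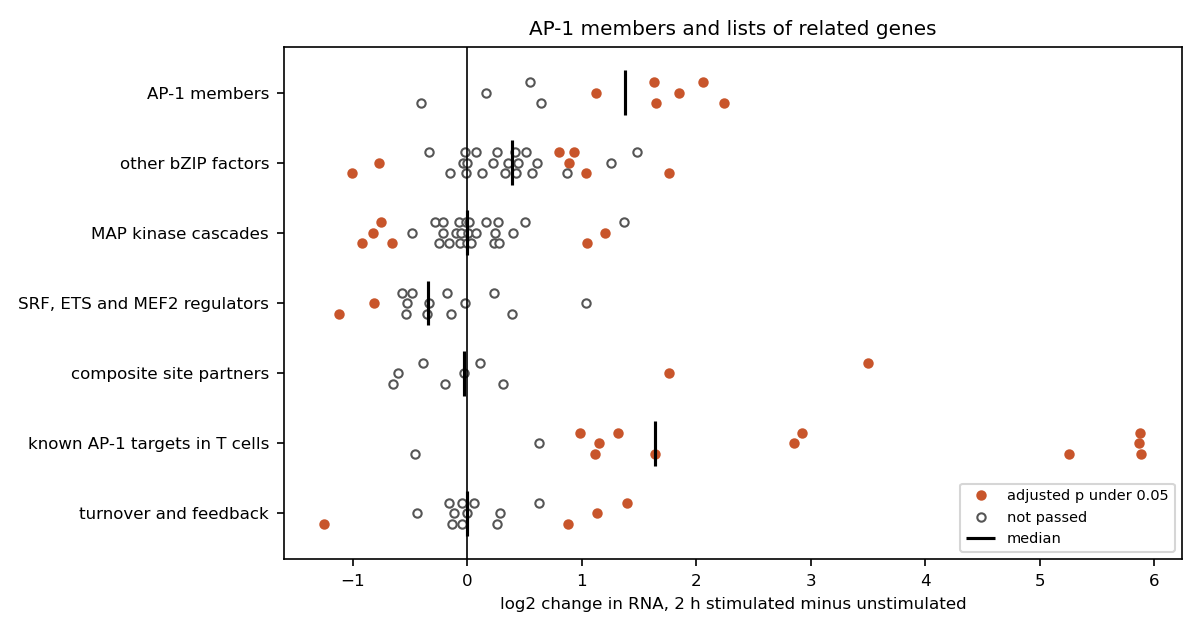
Log2 change in RNA, stimulated minus unstimulated, of the AP-1 members and of genes in 6 related lists (horizontal axis), with 1 point per tested gene, filled where the adjusted p is under 0.05, and a bar at each list's median. The medians of the members (1.38) and of the known targets (1.64) lie to the right of the others, and that of the SRF, ETS and MEF2 regulators is the lowest at -0.34.

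Other genes with the RNA profiles closest to those of the members were found by the distance between centred log2 values over the 6 RNA libraries, among 8492 genes of at least 10 CPM. Nearest to Fos were Tnfrsf9 (0.0679), the costimulatory receptor 4-1BB, and Iigp1 (0.0864), an interferon-induced GTPase. Nearest to Jun were Sema7a (0.192) and Osm (0.201), which encodes the cytokine oncostatin M. Junb was nearest to the immediate early gene Ier5 (0.0841) and to Riox1 (0.102), and Atf3 to St6galnac4 (0.0815) and Polr1b (0.111), a subunit of RNA polymerase I. Batf was nearest to Brpf3 (0.0633) and Cdk5 (0.0653). Fosb was nearest to Mpp6 (0.0720) and Utp23 (0.0726), Fosl2 to Znhit3 (0.0380) and Zpr1 (0.0387), and Jund to Tsen54 (0.271) and Bloc1s4 (0.284). The genes compared share the libraries and their scaling, and no test was made on these distances.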

How the data were processed

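The authors deposited unnormalized counts of reads on each gene's coding sequence, 1 column per library, per the file headers. Reads were aligned with STAR 2.5 to GRCm38, per the submitters' processing notes. The counting tool, annotation, strand handling and read filters are not given in the sources used here. The series table equals the single files in all 241527 values. Of 21957 Ensembl IDs, 21838 were named from a table of IDs and symbols.

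Each assay was tested with edgeR 4.0.16 (quasi-likelihood, TMM on genes passing its filter, minimum count 10 and total 15), and efficiency as an interaction with scaling within each assay. Adjusted p-values are Benjamini-Hochberg over all genes tested, two-sided, with a threshold of 0.05. The SE is the log2 change divided by the square root of F. Distances used log2(CPM + 2). The fits were tested on simulated data. Members, lists and tests were chosen with earlier results of these data known. Genes named outside the members are, per list, up to 4 that passed in RNA with the largest change and at least 10 CPM, or by the stated distance. Others, such as Creb1, Jdp2, Atf5, Mapk3, Map3k3, Cd44 and genes given as not passing, were chosen after their values were seen. Coding lengths were not used, so the planned shares per kilobase are shares of counts. Of 111 list genes, 3 were matched by an older symbol, and Ddit3, with more than 1 ID, was left out. Alternatives were RLE scaling, library totals, scaling without Gm10800, Gm10801, Gm20594 and Lars2, other filters, DESeq2 1.42.0, limma 3.58.1 voom, blocks, left-out libraries and thinned RNA (seed 20). Scaling on genes of at least 10 CPM, alone or with only those genes tested, was added after seeing the data. So were differences from the median of genes of at least 10 CPM in the same fit.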

Additional observations from a re-analysis of the deposited data

How the results depend on the processing

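The log2 changes of Jun, Fos, Atf3, Fosl1 and Batf3 in RNA kept their direction and passed in every alternative in which they could be tested (ranges 1.88 to 2.32, 1.31 to 1.74, 1.28 to 1.71, 1.76 to 2.15 and 1.55 to 1.93). Junb (0.74 to 1.21) lost its call in 3. Fosb, Jund and Batf kept their direction and passed in 8, 3 and 6 of 17. Fosl2 passed as higher in 2 of 17, both with scaling on genes of at least 10 CPM. It turned with RLE scaling (-0.068), library totals (-0.023) and DESeq2 (-0.16). Leaving out unstimulated replicate 2 or stimulated replicate 3 turned it too (-0.17 to 0.14 with 1 library left out). In these 5 fits with a turned sign the median of genes of at least 10 CPM moved alike. Relative to it no member changed sign in any of its 16 to 18 fits. A new scaling alone could hardly change that sign, since it shifts a gene and the median nearly alike. The number of members passing in RNA was 5 to 8 with 1 library left out, 10 with scaling on genes of at least 10 CPM, and 0 in RNA thinned to footprint depth, where none was tested. In footprints it was 0 with no filter, with the stricter filter and by DESeq2, and 0 to 1 with 1 library left out.

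All genes called in RNA numbered 1560, and 583 to 13024 with 1 library left out (the highest without unstimulated replicate 2). They numbered 5220 with library totals, 2384 among genes of at least 10 CPM, 2912 by DESeq2, 3387 by limma voom, 2404 with the replicate block, 6080 with scaling on genes of at least 10 CPM, 6228 with those genes alone tested as well, and 22 of 179 after thinning. Calls were 43.4% higher, but 19.7% with RLE scaling, 19.3% with library totals, 31.1% without the 4 genes, 12.1% by DESeq2 and 55.1% by limma voom. The median over genes of at least 10 CPM moved from -0.09 to -0.32 with RLE scaling, -0.27 with library totals, -0.22 without the 4 genes, -0.41 with DESeq2, and 0.00 with scaling on those genes. Those 4 genes took 4.09 to 14.9% of the RNA counts before stimulation and 12.8 to 25.0% after it. Footprint calls numbered 24, and 12 to 30 with 1 library left out. Efficiency calls numbered 0 of 255 genes tested, but 1 with RLE scaling, 15 with library totals and 1 by limma voom. They numbered 3 of 10636 with no filter, 2 of 1129 with the stricter filter and 29 of 1357 by DESeq2. Scaling on genes of at least 10 CPM gave 11, and 3 with only those genes tested as well. With 1 library left out there were 0 to 24.

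Whether the replicate numbers pair the samples was not settled. The correlations of deviations of same-numbered RNA libraries were -0.437, 0.329 and 0.631, and differently numbered ones ran from -0.728 to 0.600. With 3 libraries per group the deviations depend on each other, so these values cannot decide it. In footprints only replicates 2 and 3 are in both groups, which leaves a single value, 0.0118, that cannot decide it either. With the replicate block, 6 members passed in RNA, 1 in footprints and 0 in efficiency, as without it. Footprint depth limits all members, Junb included.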

Other observations

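Batf3 and Atf3, neighbours on chromosome 1 with 61.4 kb between them, both rose in RNA (3.60-fold and 3.10-fold). The annotated genes between them are Gm46178, Gm31640, Gm31696 and Fam71a, and counts there were not analysed here. In unstimulated footprints the members' sum differed between libraries, with 27, 6 and 18 footprints in replicates 1, 2 and 3, against 74 and 87 in stimulated replicates 2 and 3.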
